A study of Mus musculus with 13 samples.

Results

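The levels of 10 genes of the cyclin B and CDK1 system were followed in single mouse oocytes: the cyclin genes Ccnb1, Ccnb2 and Ccnb3, the kinase gene Cdk1, the inhibitory kinase genes Wee2 and Pkmyt1, the activating phosphatase genes Cdc25a and Cdc25b, and Mastl and Ensa, which restrain the opposing phosphatase. The genes were chosen by name for the roles of their proteins, with earlier results of these data known. All 10 were found among the 18939 genes of the count tables and the 49686 genes of the FPKM table. All 10 passed the filter on low counts in every comparison.

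Each of the 13 libraries held 1 oocyte: 3 SN GV, 3 NSN GV, 4 SN-MII and 3 NSN-MII oocytes. All came from juvenile C57BL/6 females primed with PMSG, received mRNA of FBL–GFP and of H2B-mCherry by injection, and stayed at the GV stage for 6 h in Cilostamide, an inhibitor of phosphodiesterase 3. NSN and SN type was assigned from the pattern of FBL–GFP in the nucleolus of the live oocyte, so that the type is a visual class. The MII oocytes were typed in the same way and then released from Cilostamide and matured in culture, so they are the oocytes of each type that completed the first meiotic division. All 4 groups thus share the injection and the inhibitor, and nothing states which oocytes came from the same female. The p-values therefore measure the spread between single oocytes.

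Entry into meiotic M phase is driven by CDK1 bound to a B-type cyclin. In the arrested GV oocyte the kinase is held inactive by phosphates that WEE2, an oocyte form of WEE1, and PKMYT1 add to CDK1 and that CDC25 phosphatases remove. MASTL (Greatwall) phosphorylates ENSA and its relative ARPP19, which then block the phosphatase PP2A-B55 that reverses CDK1 phosphorylation. Oocytes make almost no new mRNA during maturation and instead translate stored mRNAs, many of which are activated by lengthening of the poly(A) tail, while others are deadenylated and degraded.

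Libraries were made with SMART-seq2, in which reverse transcription starts from the poly(A) tail. A longer tail and more transcripts can raise a value alike, and a shorter tail and fewer transcripts can lower it alike. In either case the 2 cannot be told apart here. All values are shares of a library, and the RNA content of each oocyte was not measured. Total counts per library lay between 7140420 and 8846290 (6 significant digits), with 11593 to 13342 genes detected. NSN-MII oocyte 3 had the fewest genes and the largest share of counts in its 10 highest genes (12.1%). NSN GV oocyte 2 stood apart in gene length: its genes of long transcripts lay 0.58 (log2) lower, relative to short ones, than the mean of its own group, while NSN GV oocytes 1 and 3 lay 0.24 and 0.34 higher. The other 10 libraries lay between -0.15 and 0.18 of the means of their own groups. Because each value is relative to its own group, the low value of NSN GV oocyte 2 raises those of oocytes 1 and 3. Libraries of different groups cannot be ranked by these values. Oocyte identity was clear from the 10 oocyte markers examined, such as Zp3 and Gdf9, which summed to between 17914 and 33480 CPM (counts scaled to library size). Of 12 markers of cumulus and granulosa cells, Foxl2 and Ptx3 had no counts in any library, and Amhr2 and Amh had at most 2 and 3. Kitl had counts in every library, 13 to 62 at GV and 36 to 113 at MII. The highest count in any library was 46 for Cyp11a1, 38 for Has2, 37 for Inha, 23 for Star, 19 for Fshr and 11 for Inhba. The 12 markers summed to 44.7 to 80.3 CPM in GV and to 92.4 to 172 CPM in MII oocytes, and Cyp19a1 alone gave 37.8 to 67.3 and 77.0 to 158 CPM of this. Whether this difference between the stages has a part in the changes below was not tested.

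Because many stored mRNAs are activated by lengthening of the poly(A) tail, the reference 3' UTR sequences of these genes were searched. The letters sought were TTTTAT or TTTTAAT, the form of the cytoplasmic polyadenylation element, on the strand of the transcript. For each gene, the GENCODE M21 transcript nearest in length to that implied by its counts and FPKM was used (GRCm38). The letters were present in 7 of the 10 genes, beside 60.1% of 9186 tested genes with a 3' UTR of at least 120 bases. Mastl had 7 copies, Cdc25a 6, Ccnb1 4, Wee2 2, and Ccnb2, Ccnb3 and Ensa 1 each, whereas Cdk1, Pkmyt1 and Cdc25b had none. In the last 120 bases they were found in Wee2 and Ccnb3 alone, beside 22.7% of the tested genes. The 3' UTRs of Cdk1 and Pkmyt1 were short, with 174 and 124 bases. The transcripts used for Mastl and Ensa were 5590 and 3845 bases long, beside implied lengths of 4939 and 3399. Whether the annotated ends are those present in these oocytes was not tested. The copy nearest the end is printed for 4 genes that were higher at MII and for Ensa, which was lower, and the end of Cdc25b as a gene that had none. Capitals mark TTTTAT or TTTTAAT and the polyadenylation hexamer AATAAA.
Ccnb1: gctgTTTTAATttatacatctgatatcaag
Ccnb2: tgtaTTTTATtctagtttacatcacaaacc
Wee2: cataTTTTAATccagatcattgtaAATAAA
Mastl: atttTTTTAATaagttgcctcggtcatgtt
Ensa: ttctTTTTATtttccctcctccttttactt
Cdc25b: gttcAATAAAgcactgagcaagttg
These stretches lie in the 3' UTR at chr13:100778768-100778797 (minus strand) for Ccnb1, chr9:70407852-70407881 (minus) for Ccnb2, chr6:40466764-40466793 (plus) for Wee2, chr2:23116052-23116081 (minus) for Mastl, chr3:95631253-95631282 (plus) for Ensa and chr2:131198471-131198495 (plus) for Cdc25b. In Wee2, 13 bases separate the element from the hexamer, in Ccnb1 113, in Ccnb2 161 and in Ensa 814. A match is a run of letters and not a shown binding site.

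Ordered by FPKM, a level per transcript length, the GV oocyte was richest in Ccnb1 mRNA (644 ± 42.9, SD, n = 6), followed by Wee2 (385 ± 53.5), Cdk1 (205 ± 24.8) and Ccnb2 (165 ± 11.0). Mastl (61.3 ± 17.7), Cdc25b (29.3 ± 3.29), Pkmyt1 (25.9 ± 2.53) and Ensa (17.6 ± 2.50) were intermediate, and Cdc25a (4.99 ± 1.49) and Ccnb3 (4.98 ± 1.89) were lowest. Neighbours in this order had ranges that did not overlap, except Cdk1 with Ccnb2, Cdc25b with Pkmyt1, and Cdc25a with Ccnb3. Ccnb1 held rank 148 among the 11823 genes with a mean of at least 1 FPKM, Wee2 rank 281 and Cdk1 rank 593.

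At MII the order began with Ccnb1 (1163 ± 104 FPKM, SD, n = 7), Wee2 (551 ± 42.7), Ccnb2 (242 ± 31.9), Mastl (95.2 ± 10.8) and Pkmyt1 (33.6 ± 7.44), each apart from its neighbour in every library. The last 5, Cdc25b (6.53 ± 3.39), Ccnb3 (5.95 ± 1.41), Cdc25a (5.48 ± 1.24), Ensa (4.41 ± 1.11) and Cdk1 (3.19 ± 1.45), overlapped with their neighbours. Ccnb1 had moved to rank 56 of 10446 genes and Wee2 to rank 139, while Cdk1 had moved to rank 7678.

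**Figure D1:**
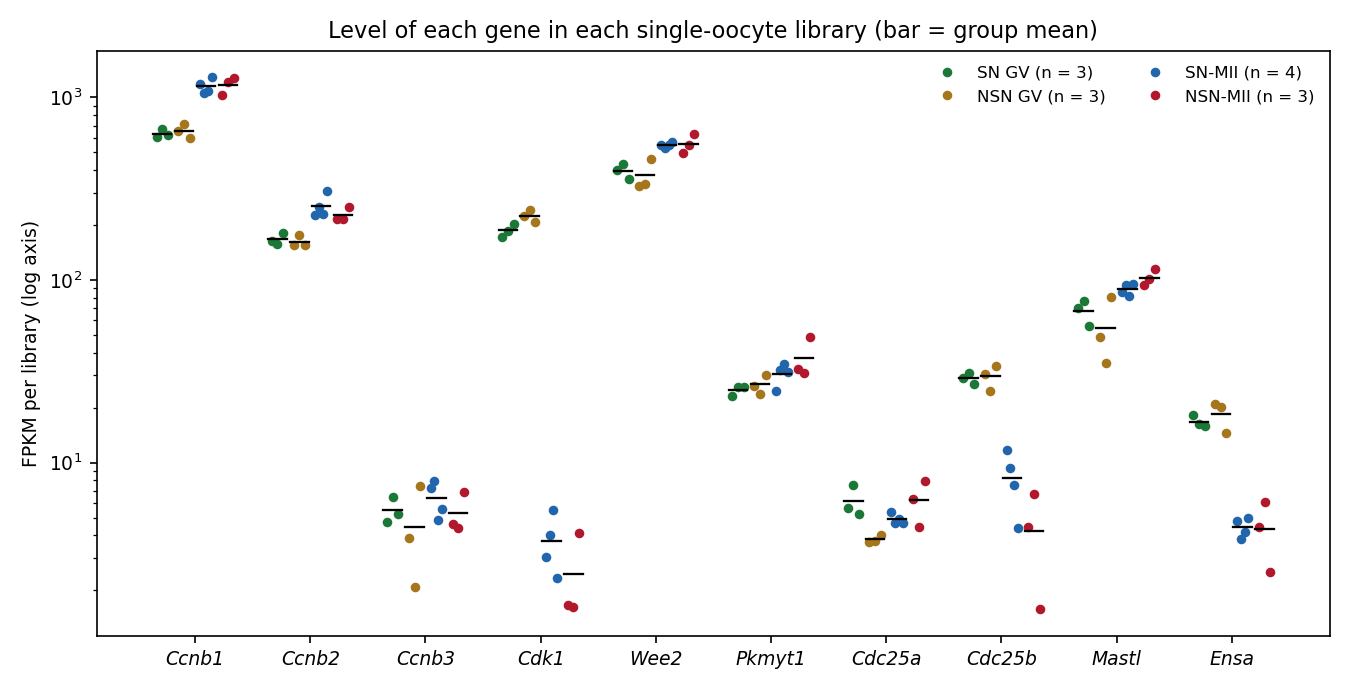
FPKM of the 10 genes (log axis) in each of the 13 single-oocyte libraries, with a bar for the mean of each group of 3 or 4 oocytes. Ccnb1, Ccnb2, Wee2 and Mastl lie higher in every MII oocyte than in any GV oocyte, and Cdk1, Cdc25b and Ensa lie lower.

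The first comparison asked how these mRNAs changed between GV and MII. Of the 10 genes, 5 were higher at MII (Ccnb1, Ccnb2, Wee2, Pkmyt1 and Mastl), 3 were lower (Cdk1, Cdc25b and Ensa) and 2 (Ccnb3 and Cdc25a) did not pass the test, as judged by the quasi-likelihood test of edgeR with p-values adjusted over 11375 genes by the Benjamini-Hochberg method. Changes were common: 68.6% of all tested genes passed, 31.7% as higher and 36.9% as lower, so the count of 8 of 10 is near the share over all genes. Scaled counts of the 2 stages did not overlap for 7 of the 10, beside 47.4% of all genes. The median log2 fold change of the 10 was 0.48 and that of all tested genes -0.10. The position of zero depended on the scaling: the median of all genes was -0.39 with library totals and 0.03 with upper-quartile factors, so small changes are to be read against this shift.

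Ccnb1 (chr13:100778650-100786570, minus strand) encodes cyclin B1, the main partner of CDK1. Its FPKM was 604, 669 and 623 in SN and 655, 711 and 600 in NSN GV oocytes, and 1184, 1061, 1088 and 1285 in SN-MII and 1030, 1218 and 1273 in NSN-MII oocytes. Every MII oocyte lay above every GV oocyte, and SN and NSN oocytes were interleaved at each stage. Ccnb1 was 2.05-fold higher at MII (log2 fold change 1.04, 95% interval 0.76 to 1.32, edgeR adjusted p = 3.31e-06).

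Ccnb2 (chr9:70407692-70421547, minus strand) encodes cyclin B2, which can also activate CDK1. Its FPKM was 164, 157 and 180 in SN GV, 156, 176 and 155 in NSN GV, 226, 251, 229 and 306 in SN-MII and 216, 215 and 252 in NSN-MII oocytes. The stages did not overlap, and the highest value was that of SN-MII oocyte 4. Ccnb2 was 1.63-fold higher at MII (log2 0.70, interval 0.39 to 1.01, edgeR adjusted p = 0.000466).

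Ccnb3 (chrX:6979652-7041619, minus strand) encodes cyclin B3, a divergent B-type cyclin needed for the exit from metaphase I. Its FPKM was 4.76, 6.46 and 5.23 in SN GV, 3.89, 2.08 and 7.44 in NSN GV, 7.30, 7.92, 4.86 and 5.61 in SN-MII and 4.64, 4.40 and 6.89 in NSN-MII oocytes. The stages overlapped, and NSN GV oocytes 2 and 3 gave the lowest and the highest GV value. The log2 difference was 0.40 (interval -0.18 to 0.97, edgeR adjusted p = 0.204). Ccnb3 is transcribed into a long mRNA (implied length 4790 bases). Its extremes fell on the 2 libraries that also stood lowest and highest in long genes within the NSN GV group. The part of this in the result was not tested. Without NSN GV oocyte 3 the difference was 0.73 with an adjusted p of 0.0131.

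Cdk1 (chr10:69335146-69352938, minus strand), the gene of the catalytic subunit, had by far the largest change of the 10. Its FPKM was 172, 185 and 204 in SN GV and 223, 241 and 207 in NSN GV oocytes, and 3.06, 4.0, 5.54 and 2.33 in SN-MII and 1.67, 1.62 and 4.11 in NSN-MII oocytes. Every MII oocyte had a small fraction of the GV level, yet all kept reads, with expected counts of 9 to 42 beside 1452 to 2050 at GV. The fold was 72.9 lower at MII (log2 fold change -6.19, interval -6.79 to -5.59, edgeR adjusted p = 3.90e-11).

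The genes of both inhibitory kinases passed as higher at MII, as Ccnb1 and Ccnb2 did, but the stages overlapped for Pkmyt1. Wee2 (chr6:40439088-40466813, plus strand), the oocyte kinase that keeps CDK1 phosphorylated in GV arrest, gave 398, 431 and 359 FPKM in SN GV, 326, 337 and 459 in NSN GV, 547, 525, 547 and 570 in SN-MII and 493, 545 and 631 in NSN-MII oocytes. No MII value fell within the GV range, and the 4 SN-MII oocytes were the most alike (525 to 570). Wee2 was 1.59-fold higher (log2 0.67, interval 0.35 to 0.99, edgeR adjusted p = 0.000922).

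Pkmyt1 (chr17:23726336-23736735, plus strand), whose protein is bound to membranes and also phosphorylates CDK1, gave 23.1, 26.0 and 25.9 FPKM in SN GV, 26.3, 23.8 and 30.3 in NSN GV, 24.6, 32.2, 34.8 and 31.2 in SN-MII and 32.5, 31.0 and 48.9 in NSN-MII oocytes. SN-MII oocyte 1 lay within the GV range and NSN-MII oocyte 3 lay well above all others. Pkmyt1 was 1.47-fold higher by the test (log2 0.56, interval 0.17 to 0.94, edgeR adjusted p = 0.0120). With library totals in place of TMM the difference was 0.24 and no longer passed (adjusted p = 0.168). The last 550 bases of the gene overlap Paqr4 on the other strand, and no strand-specific step is named, so reads there cannot be assigned with certainty.

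Of the genes of the phosphatases that remove the inhibitory phosphates, Cdc25b fell and Cdc25a did not pass the test. Cdc25b (chr2:131186949-131198497, plus strand), needed for resumption of meiosis in the mouse oocyte, gave 29.0, 30.9 and 26.8 FPKM in SN GV, 30.7, 24.6 and 33.9 in NSN GV, 11.7, 9.32, 7.55 and 4.40 in SN-MII and 4.43, 6.72 and 1.58 in NSN-MII oocytes. All MII oocytes lay below all GV oocytes, with the lowest value in NSN-MII oocyte 3. Cdc25b was 5.09-fold lower at MII (log2 fold change -2.35, interval -2.81 to -1.89, edgeR adjusted p = 7.74e-08). Its first 334 bases overlap Spef1 on the other strand.

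Cdc25a (chr9:109875579-109893895, plus strand), a relative that also acts on CDK1 and CDK2, gave 5.67, 7.53 and 5.25 FPKM in SN GV, 3.68, 3.74 and 4.04 in NSN GV, 5.35, 4.68, 4.91 and 4.70 in SN-MII and 6.34, 4.47 and 7.90 in NSN-MII oocytes. The 3 NSN GV oocytes had the lowest values of all 13, and the stages overlapped. The log2 difference between the stages was 0.30 (interval -0.15 to 0.75, edgeR adjusted p = 0.216) and turned to -0.006 with library totals.

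Mastl (chr2:23115606-23156024, minus strand), the Greatwall kinase, gave 70.6, 76.9 and 56.2 FPKM in SN GV, 48.5, 35.2 and 80.5 in NSN GV, 85.9, 94.2, 81.7 and 95.2 in SN-MII and 93.3, 101 and 115 in NSN-MII oocytes. The stages did not overlap, but NSN GV oocyte 3 (80.5) almost reached the lowest MII value. Mastl was 1.82-fold higher at MII (log2 0.87, interval 0.45 to 1.28, edgeR adjusted p = 0.000872). Its mRNA is also long (4939 bases), and NSN GV oocytes 2 and 3 were again the lowest and highest GV values. Without NSN GV oocyte 2 the change was 0.75 (adjusted p = 0.00202).

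Ensa (chr3:95624993-95632102, plus strand), which encodes a substrate of Greatwall, moved the other way. Its FPKM was 18.1, 16.3 and 15.8 in SN GV, 20.8, 20.2 and 14.6 in NSN GV, 4.82, 3.81, 4.18 and 5.00 in SN-MII and 4.43, 6.12 and 2.52 in NSN-MII oocytes. All MII oocytes lay below all GV oocytes. Ensa was 3.48-fold lower at MII (log2 fold change -1.80, interval -2.25 to -1.34, edgeR adjusted p = 1.45e-06).

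Read beside the 3' UTR letters, 4 of the 5 genes higher at MII had TTTTAT or TTTTAAT and 1 of the 3 lower genes had it. Ccnb3 and Cdc25a, which did not pass, had it as well. Over all genes tested in this way, 2625 of 3369 higher genes and 1255 of 3257 lower genes had the letters. The split in the cyclin B and CDK1 genes is thus near that over all genes. Among the 9186 tested genes with a 3' UTR of at least 120 bases, the 5521 genes with the letters had a median log2 change of 0.55, with 47.5% higher and 22.7% lower, and the 3665 genes without them had a median of -0.96, with 20.3% higher and 54.6% lower. Genes with the letters also had longer 3' UTRs (median 1347 against 432 bases), and the part of length in this difference was not tested.

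Levels were also compared as ratios within an oocyte, in which the scaling of a library largely cancels, apart from the constant of 0.1 added to each FPKM. The FPKM also carry the length that RSEM assigned. The length that counts and FPKM imply was 0.731 times as long at MII as at GV for Cdk1 and 0.923 times for Ccnb1. Values near that of Ccnb1 were common, such as 0.905 for Ccnb2, 0.903 for Zp3 and 0.909 for Gdf9, though Arpp19 had 2.643. The value of Ccnb1 therefore does not by itself show a shorter assigned length. A shift shared by both genes of a pair cancels in their ratio, whereas the further drop of Cdk1 does not. The ratio of Ccnb1 to Cdk1 had a geometric mean of 3.15 (2.90 to 3.61) in the 6 GV oocytes and of 384 (193 to 708) in the 7 MII oocytes (exact permutation test, two-sided, p = 0.000583, adjusted p = 0.00233 over 12 tests, the smallest p the design allows being 0.000583). The ratio of Cdc25b to Wee2, a phosphatase to its opposing kinase, went from 0.0765 (0.0719 to 0.0943) to 0.0104 (0.00266 to 0.0216) with the same p. That of Cdc25a to Cdc25b went from 0.168 (0.122 to 0.246) to 0.958 (0.462 to 4.76), again with the same p. In these 3 ratios the stages did not overlap, and while every GV oocyte held more Cdc25b than Cdc25a mRNA, MII oocytes lay on both sides of an equal level. The ratio of Ccnb1 to Ccnb2 changed little, from 3.91 (3.46 to 4.26) to 4.82 (4.20 to 5.67), with overlap of the stages (exact permutation test, two-sided, p = 0.00466, adjusted p = 0.0140).

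**Figure D2:**
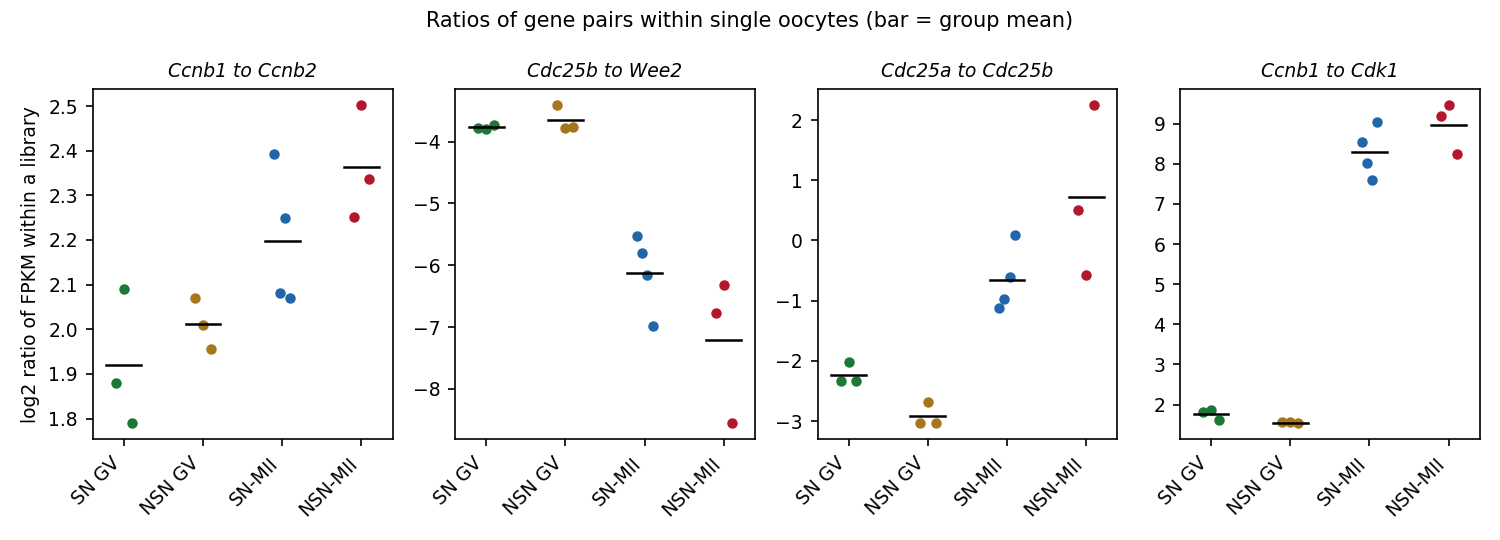
Log2 ratio of the FPKM of 2 genes within each library, for 4 pairs, with a bar for each group mean. The Ccnb1 to Cdk1 ratio has a mean log2 of 1.65 in GV and 8.59 in MII oocytes, and the Cdc25b to Wee2 ratio one of -3.71 and -6.59.

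The stages were next compared within each oocyte type. In SN oocytes 6 of the 10 genes passed, beside 56.3% of all genes: 3 were higher (25.1% of all genes) and 3 lower (31.2%). In NSN oocytes 9 passed, beside 56.3%, of which 6 were higher (25.5%) and 3 lower (30.8%). Scaled counts of the stages did not overlap for 8 of the 10 in SN oocytes (63.4% of all genes) and for 9 in NSN oocytes (60.9%). The median change of the 10 was 0.41 in SN and 0.65 in NSN oocytes, beside -0.08 and -0.12 for all genes. The libraries are those of the comparison over both types, so these are not independent results. The log2 change of Cdk1 was -5.74 in SN and -6.64 in NSN oocytes, that of Cdc25b -1.76 and -2.94 and that of Ensa -1.60 and -2.0. For Ccnb1 it was 1.05 and 1.03, for Ccnb2 0.76 and 0.64 and for Wee2 0.62 and 0.72. Cdk1, Cdc25b and Ensa changed most in each type.

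A further 3 genes passed in NSN oocytes but not in SN oocytes, which does not by itself show that the types differed. Mastl gave 0.62 (edgeR adjusted p = 0.0581) in SN and 1.11 (adjusted p = 0.00333) in NSN oocytes, Pkmyt1 0.46 (adjusted p = 0.132) and 0.66 (adjusted p = 0.0425), and Cdc25a -0.18 (adjusted p = 0.614) and 0.78 (adjusted p = 0.0414). The calls of Pkmyt1 and Cdc25a in NSN oocytes were each lost in 8 of 13 fits that left out 1 library. Without NSN-MII oocyte 3 the change of Pkmyt1 was 0.27 (adjusted p = 0.342) and that of Cdc25a 0.38 (adjusted p = 0.276). Without NSN GV oocyte 1, 5 of the 10 genes passed in NSN oocytes. For Mastl the call in SN oocytes was gained without NSN GV oocyte 2, NSN GV oocyte 3 or NSN-MII oocyte 3 (adjusted p = 0.0340, 0.0161 and 0.0401).

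Whether the change differed between the types was tested as an interaction. None of the 10 passed by edgeR (0.0176% of all genes did) or by DESeq2, and 2 had an unadjusted p under 0.05, beside 5.33% of all genes. For Cdc25b the log2 change in NSN oocytes minus that in SN oocytes was -1.18 (interval -2.08 to -0.29, edgeR unadjusted p = 0.0128, adjusted p = 0.761). For Cdc25a it was 0.96 (interval 0.07 to 1.86, edgeR unadjusted p = 0.0364, adjusted p = 0.894), and 0.57 without NSN-MII oocyte 3.

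**Figure D3:**
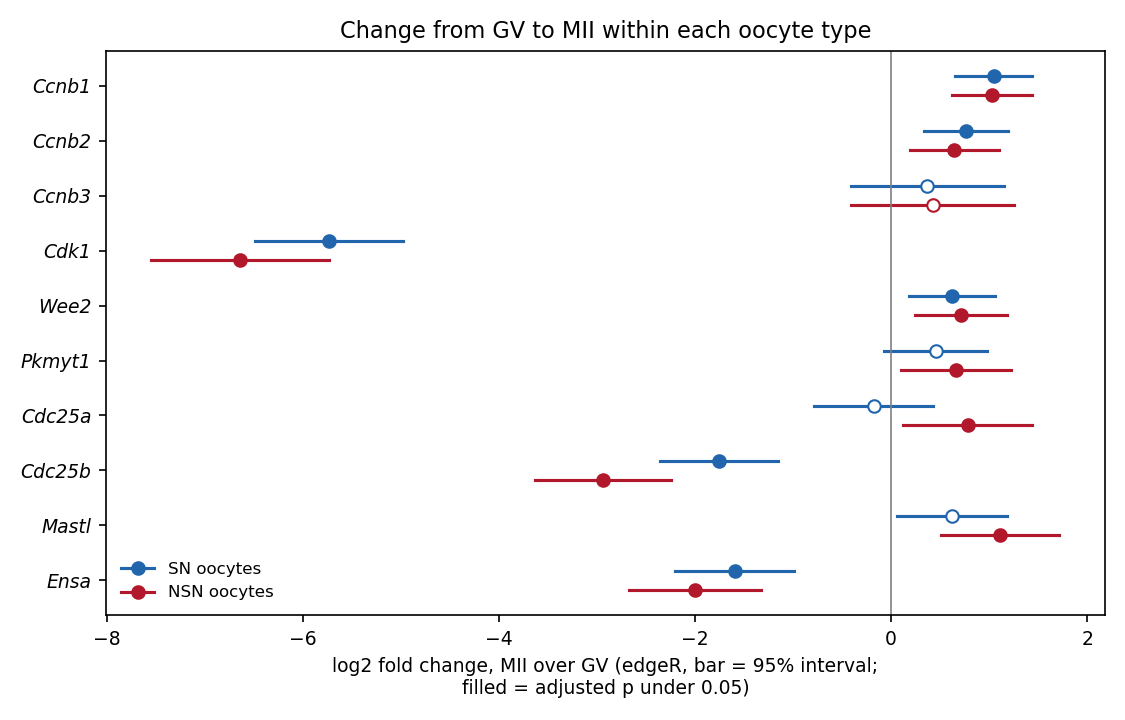
Log2 fold change from GV to MII of each gene in SN oocytes (blue) and NSN oocytes (red), with 95% intervals and filled points for an edgeR adjusted p under 0.05. The intervals of the 2 types overlap for every gene, and those of Cdc25a and Cdc25b overlap least.

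The comparison at the heart of the study sets NSN against SN oocytes of the same stage. In GV oocytes none of the 10 genes passed by edgeR, and neither did any of 10839 genes tested (0%). An unadjusted p under 0.05 was found for 190 genes (1.75%), among them 1 of the 10, and DESeq2 called none of the 10 either. In FPKM, Cdk1 and Cdc25a had ranges that did not overlap between the types. In counts scaled within the stage the same 2 of 10 genes did not overlap, beside 6.57% of all genes.

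Cdc25a was lower in NSN GV oocytes, with 3.82 ± 0.193 against 6.15 ± 1.21 FPKM (SD, n = 3 each). The log2 difference was -0.70 (interval -1.31 to -0.09, edgeR unadjusted p = 0.0290, adjusted p = 1.0) and lay between -0.82 and -0.54 when single libraries were left out. Cdk1 was 224 ± 16.9 FPKM in NSN and 187 ± 15.8 in SN GV oocytes, a log2 difference of 0.22 (interval -0.14 to 0.58, edgeR unadjusted p = 0.191, adjusted p = 1.0), and its ranges overlapped once counts were scaled over all 13 libraries.

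The log2 difference between the GV types was 0.02 (interval -0.30 to 0.33) for Ccnb1 and -0.06 (interval -0.42 to 0.30) for Ccnb2. For Wee2 it was -0.09 (interval -0.51 to 0.32), for Pkmyt1 0.08 (interval -0.36 to 0.53), for Cdc25b 0.06 (interval -0.35 to 0.47) and for Ensa 0.13 (interval -0.33 to 0.59). The widest intervals were those of the long mRNAs Mastl (-0.31, interval -0.98 to 0.37) and Ccnb3 (-0.31, interval -1.27 to 0.64). Without NSN GV oocyte 2, lowest in long genes within its group, these were -0.06 and 0.02. Without NSN GV oocyte 3, highest within that group, they were -0.73 and -0.92, so that both rested on single libraries.

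In MII oocytes none of the 10 passed by edgeR, beside 0.259% of 10028 genes, and none by DESeq2. An unadjusted p under 0.05 was found for 1 of the 10, beside 9.38% of all genes. This was Cdc25b, with 4.24 ± 2.58 FPKM in NSN-MII (n = 3) and 8.24 ± 3.07 in SN-MII oocytes (n = 4). Its log2 difference was -1.14 (interval -1.94 to -0.34, edgeR unadjusted p = 0.00895, adjusted p = 0.283) and lay between -1.33 and -0.84 when single libraries were left out. It was the only gene of the 10 whose scaled counts did not overlap, beside 10.2% of all genes. Its FPKM ranges did overlap, since SN-MII oocyte 4 (4.40) lay below NSN-MII oocytes 1 and 2 (4.43 and 6.72).

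The level of Cdk1 at MII was 2.47 ± 1.42 FPKM in NSN-MII and 3.73 ± 1.39 in SN-MII oocytes, a log2 difference of -0.67 (interval -2.06 to 0.73). Only 9 to 42 counts were left per library, and the difference was -0.34 without NSN-MII oocyte 2, -0.39 without SN-MII oocyte 3 and -1.36 without NSN-MII oocyte 3. The difference was -0.02 (interval -0.37 to 0.33) for Ccnb1, -0.19 (interval -0.60 to 0.22) for Ccnb2, -0.02 (interval -0.37 to 0.34) for Wee2 and 0.16 (interval -0.22 to 0.55) for Mastl. For these 4 abundant mRNAs a change of 2-fold between the types lies outside the interval. The limits are wider for Ccnb3 (-0.28, interval -0.91 to 0.34), Pkmyt1 (0.27, interval -0.27 to 0.80) and Cdc25a (0.23, interval -0.39 to 0.85), but also exclude a 2-fold change. Those of Ensa (-0.29, interval -1.07 to 0.49) do not.

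**Figure D4:**
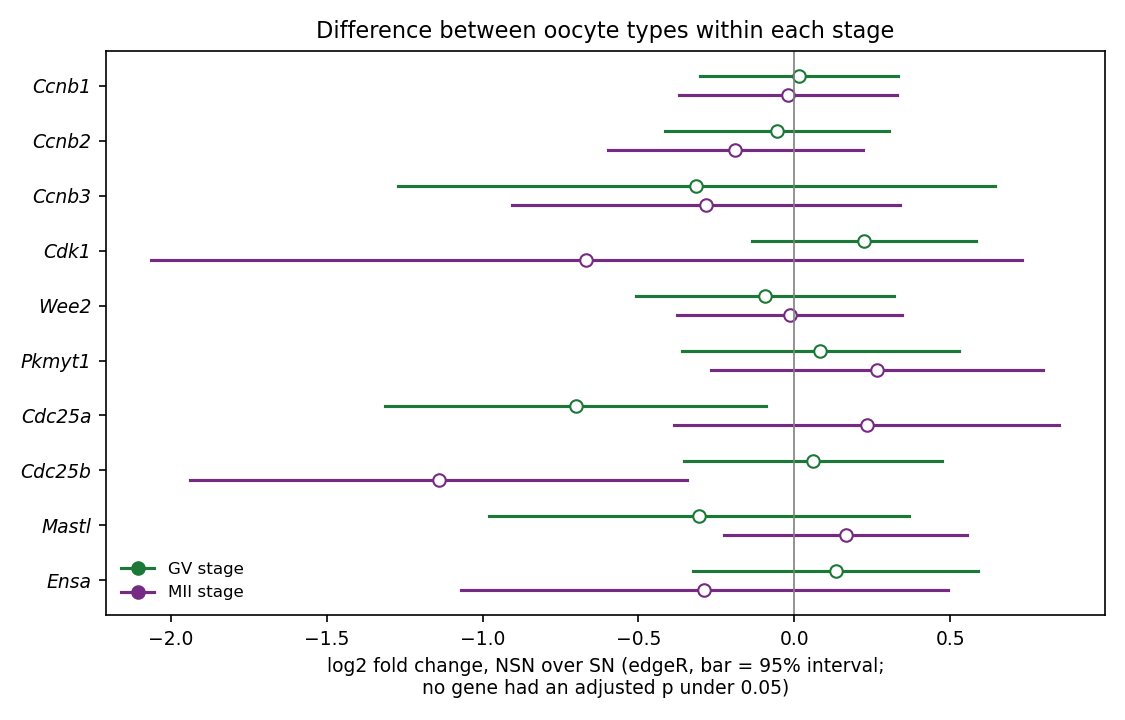
Log2 difference of NSN over SN oocytes for each gene in GV (green) and MII (purple) oocytes, with 95% intervals. No gene had an edgeR adjusted p under 0.05, and the intervals exclude 0 for Cdc25a at GV and Cdc25b at MII only.

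The within-oocyte ratios gave no difference between the types that passed either. At GV the ratio of Cdc25a to Cdc25b was 0.133 (0.122 to 0.156) in NSN and 0.213 (0.198 to 0.246) in SN oocytes, and that of Ccnb1 to Cdk1 was 2.93 (2.90 to 2.95) and 3.38 (3.06 to 3.61). Neither pair of ranges overlapped. Each gave p = 0.1 (exact permutation test, two-sided, adjusted p = 0.196), the smallest that 3 against 3 oocytes allow. At MII, where 3 against 4 oocytes allow 0.0286, the smallest p was 0.114 (exact permutation test, two-sided, adjusted p = 0.196), for Cdc25a to Cdc25b.

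Around these genes, 42 further genes of the pathway in 6 lists were examined between GV and MII. Of the 37 that were tested, 10 were higher, 14 were lower and 13 did not pass, beside 31.7% higher, 36.9% lower and 68.6% called in either direction among all genes. Their median log2 change was 0.05 beside -0.10 for all genes. The counts of the single lists are to be read against the same shares. Genes of the lists with too few counts to be tested included Ppp2cb, Ppp2r2c, Ccna1 and Cdkn1c. None of 36 tested genes differed between NSN and SN oocytes at GV by edgeR, beside 0% of all genes, and 0 had an unadjusted p under 0.05, beside 1.75%. None of 36 passed at MII, beside 0.259% of all genes, and 3 had an unadjusted p under 0.05, beside 9.38%.

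Among the CDK subunits and the CDK-activating kinase, 2 of 5 genes rose and 2 fell, beside 31.7% and 36.9% of all genes, with a median log2 change of -0.37. Cks1b, a small subunit that docks CDK substrates, went from a median of 263 FPKM (221 to 337) at GV to 539 (475 to 832) at MII (log2 1.27, edgeR adjusted p = 2.75e-05). Cdk7 and Ccnh, the kinase and cyclin that activate CDK1 by phosphorylation, fell from 91.6 (84.5 to 121) to 25.8 (20.5 to 41.6) and from 36.4 (34.3 to 50.1) to 3.20 (1.63 to 4.42) FPKM (log2 fold changes -1.69 and -3.66, edgeR adjusted p = 1.90e-07 and 5.42e-09).

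Of 6 tested genes that regulate the inhibitory phosphates, 1 rose, 3 fell and 2 did not pass, beside 68.6% of all genes called, with a median log2 change of -0.50. Cdc25c, the third CDC25 gene, fell from a median of 10.3 (8.01 to 12.5) to 0.21 (0 to 0.87) FPKM (log2 fold change -5.21, edgeR adjusted p = 1.08e-08), and Wee1, the somatic relative of Wee2, from 2.07 (1.36 to 5.29) to 0.72 (0.35 to 1.26) FPKM (log2 fold change -1.79, edgeR adjusted p = 0.000636). Chek1, a checkpoint kinase that acts on CDC25 proteins, rose from 271 (238 to 290) to 624 (529 to 697) FPKM (log2 1.30, edgeR adjusted p = 5.23e-07). The oocyte gene Wee2 was thus far above Wee1 at each stage, and Wee2 rose where Wee1 fell.

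The 14-3-3 proteins bind phosphorylated CDC25B and hold it in the cytoplasm, and of their 6 genes 2 rose and 2 fell, beside 31.7% and 36.9% of all genes, with a median log2 change of 0.25. Ywhab rose from a median of 35.0 (18.9 to 39.4) to 111 (60.7 to 141) FPKM (log2 1.89, edgeR adjusted p = 4.77e-07). Ywhaq fell from 224 (212 to 281) to 36.3 (15.1 to 70.9) and Ywhah from 15.1 (11.6 to 19.02) to 2.60 (1.91 to 5.26) FPKM (log2 fold changes -2.62 and -2.28, edgeR adjusted p = 4.75e-08 and 6.44e-07).

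In the list of Arpp19 and PP2A-B55, 2 of 7 tested genes rose, 3 fell and 2 did not pass, beside 68.6% of all genes called, with a median log2 change of 0.05. Ppp2r1a, a scaffold subunit, rose from a median of 80.8 (74.7 to 93.3) to 181 (162 to 226) FPKM (log2 1.34, edgeR adjusted p = 4.53e-07). Ppp2r2b, a B55 subunit, fell from 30.9 (18.98 to 35.5) to 2.76 (1.48 to 4.65) FPKM and the catalytic subunit gene Ppp2ca from 1.79 (0.93 to 2.23) to 0.35 (0.05 to 0.69) FPKM (log2 fold changes -3.29 and -2.19, edgeR adjusted p = 4.53e-09 and 4.62e-05). The FPKM of Ppp2ca rest on a long implied length, 8358 bases at GV and 7595 at MII. Its scaled counts were 6.70 to 17.7 CPM at GV and 0.409 to 5.23 at MII. The change of Arpp19, the relative of Ensa, depended on the unit. Its scaled counts were 153 to 246 CPM at GV and 158 to 277 at MII (log2 0.05, edgeR adjusted p = 0.760), while its FPKM went from 282 to 516 at GV to 98.5 to 164 at MII. The length that its counts and FPKM imply was 590 bases at GV and 1560 at MII, so the deposited FPKM assigned its reads to longer transcripts at MII. For the 10 genes of the cyclin B and CDK1 system this ratio of implied lengths was between 0.731 (Cdk1) and 0.962.

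Among the other cyclins and CDKs, 3 of 11 tested genes rose, 4 fell and 4 did not pass, beside 68.6% of all genes called, with a median log2 change of 0.32. Ccnf fell from a median of 27.2 (25.4 to 35.1) to 1.58 (0.64 to 2.29) FPKM, Cdk4 from 10.9 (6.39 to 17.4) to 1.37 (0 to 2.98) and Ccno from 748 (714 to 879) to 110 (87.2 to 148). Their log2 fold changes were -4.05, -3.45 and -2.64 (edgeR adjusted p = 3.59e-10, 5.70e-06 and 1.10e-10). Of the CDK inhibitor genes, Cdkn1a and Cdkn1b were tested and did not pass over both types (log2 0.96 and 0.74, edgeR adjusted p = 0.0620 and 0.111). Within SN oocytes 1 of these 2 passed as higher (edgeR adjusted p = 0.0382), beside 25.1% of all genes, and within NSN oocytes 0 passed.

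**Figure D5:**
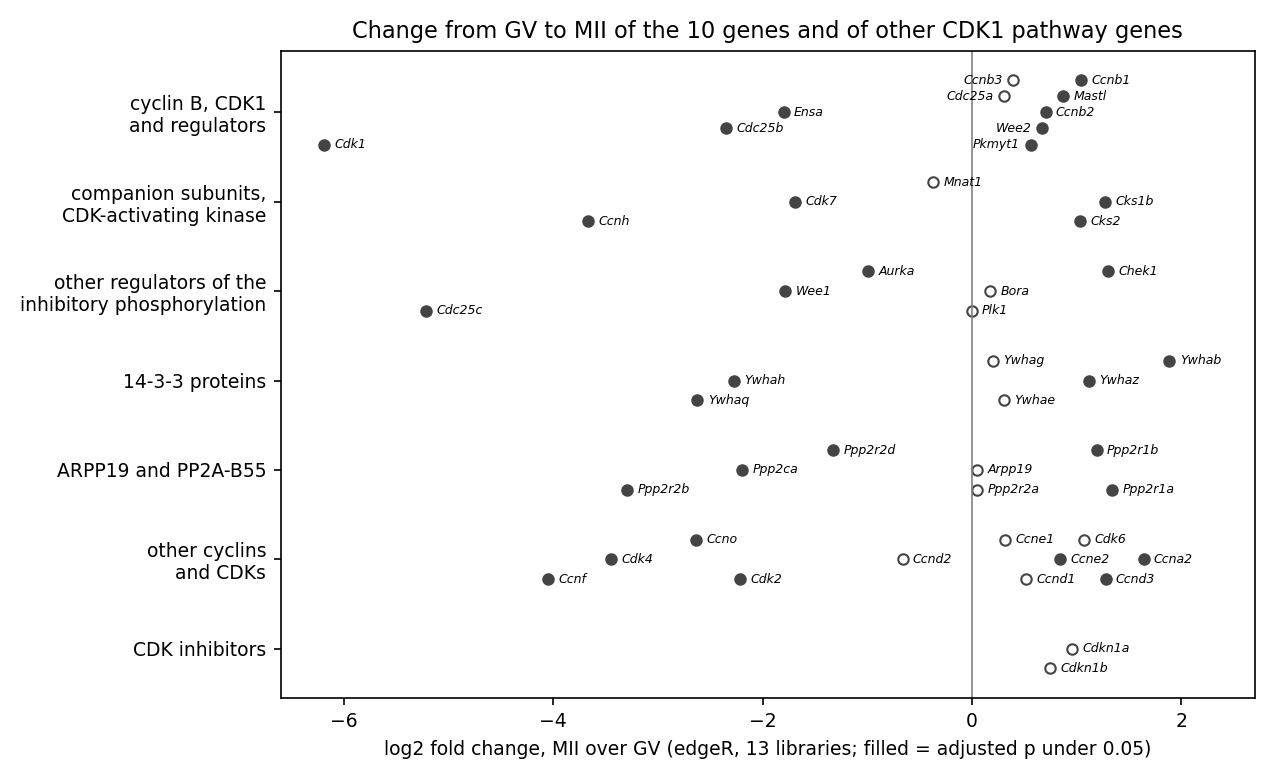
Log2 fold change from GV to MII (13 libraries) of the 10 genes and of the tested genes of 6 pathway lists, 1 point per gene, filled for an edgeR adjusted p under 0.05. Cdk1 (-6.19), Cdc25c (-5.21) and Ccnf (-4.05) lie farthest to the left and Ywhab (1.89) farthest to the right.

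The genes whose log2 FPKM ran most like these across the 13 libraries were sought among 11524 genes, as a description. The closest to Ccnb1 were Ndufa10, Dazl and Cnot8 (Pearson's r = 0.99 each), and the closest to Cdk1 were Cdc42ep2, Ccdc105 and Ctnnbl1 (r = 1.0 each after rounding). For Wee2 they were Cep55, Ube2h and Cux1 (r = 0.98), and for Mastl Fndc3a, Zfp655 and Ppfibp1 (r = 0.97, 0.96 and 0.95). Dazl, which encodes an RNA-binding protein of germ cells, had a mean of 448 FPKM at GV and of 947 at MII. All libraries of a stage share a level in these genes, so that the correlations mainly follow the 2 stages.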

How the data were processed

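The authors deposited 1 table of expected count values per stage and a table of FPKM values of more genes over both stages. According to the submitters' processing notes and the methods, reads were trimmed with Trim Galore 0.4.4, aligned to mm10 with Bowtie2 2.3.5 and quantified with RSEM 1.2.28 (Ensembl annotation is named for mapping and RefSeq genes for counting), which shares reads between genes and scales FPKM by transcript length. DESeq2 1.20.0 was named for their normalization. Between 11.0% and 16.6% of a library's count values were not whole, and counts were rounded.

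Genes were filtered with filterByExpr, libraries scaled by TMM, and groups compared with edgeR 4.0.16 (R 4.3.3) by the quasi-likelihood test with Benjamini-Hochberg adjustment over all genes (adjusted p under 0.05). NSN and SN were compared within each stage. MII and GV, and the interaction, were fitted on all 13 libraries. Standard errors were taken from the fold change and its F statistic, and the 95% intervals from these. DESeq2 1.42.0 and limma 3.58.1 on log2(FPKM + 1) or log2(FPKM + 0.1) served as alternatives, with other scalings, no filter, the replicate number as a block and each library left out in turn. Ranges were compared in TMM-scaled counts. The steps were tested on simulated data. The common biological coefficient of variation was 0.352 at GV and 0.344 at MII. No molecular identifiers are named, so reads are not independent molecules.

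The 10 genes and the pathway lists were chosen with earlier results of these data known. Other genes were named by a rule: up to 3 per list with the largest change among those called without overlap between the stages, and the 3 genes most correlated with Ccnb1, Cdk1, Wee2 and Mastl. Arpp19, Cdkn1a, Cdkn1b and the named genes that were not tested were chosen after their values were seen. Gene positions and 3' UTR sequences are those of GENCODE M21 (GRCm38). No amino acid sequence is shown.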

Additional observations from a re-analysis of the deposited data

How the results depend on the processing

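The calls of Ccnb1, Cdk1, Cdc25b and Ensa between the stages, over both types and within each, held in all 9 other settings and in all 13 fits without 1 library. Of the 10 genes, 7 or 8 passed between the stages under the other settings and 8 or 9 without 1 library. In SN oocytes 5 to 8 passed under the other settings and 5 to 7 without 1 library, and in NSN oocytes 6 to 9 and 5 to 9. No gene of the 10 passed between NSN and SN oocytes or in the interaction under any of these. With upper-quartile factors Pkmyt1 and Mastl also passed in SN oocytes (log2 0.60 and 0.77, edgeR adjusted p = 0.0403 and 0.0131). With library totals Wee2 no longer passed in SN oocytes (0.32, adjusted p = 0.0648) nor Ccnb2 in NSN oocytes (0.33, adjusted p = 0.0921), and Cdc25a between the stages turned to -0.00599. The calls of Pkmyt1 and Cdc25a in NSN oocytes were each lost in 7 of 9 other settings. The cause of these losses was not tested.

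Small differences between the types changed sign. For Ccnb1 the NSN minus SN difference was -0.000117 at GV with all 13 libraries in 1 fit, and at MII it was 0.0073 with library totals, 0.0164 with upper-quartile factors and 0.0221 with limma on FPKM with either pseudocount, with or without a filter. For Wee2 at MII the same settings gave 0.00623, 0.020 and 0.0174. The interaction of Ccnb1 was 0.00514 with DESeq2 and 0.00784 with the size factors of DESeq2. Without 1 library, the GV difference ranged from -0.0815 to 0.0622 for Ccnb1, -0.148 to 0.00232 for Ccnb2, -0.918 to 0.0159 for Ccnb3, -0.278 to 0.0268 for Wee2, -0.0326 to 0.138 for Pkmyt1 and -0.0191 to 0.132 for Cdc25b. The MII difference ranged from -0.171 to 0.096 for Ccnb1, -0.216 to 0.106 for Wee2, -0.0881 to 0.417 for Pkmyt1, -0.132 to 0.423 for Cdc25a, -0.0415 to 0.30 for Mastl and -0.599 to 0.0443 for Ensa. The change of Cdc25a in SN oocytes ranged from -0.318 to 0.00809. The interaction ranged from -0.187 to 0.107 for Ccnb1, -0.317 to 0.0287 for Ccnb2, -0.323 to 0.713 for Ccnb3, -0.128 to 0.313 for Wee2 and -0.177 to 0.371 for Pkmyt1.

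Correlations between the deviations of same-numbered oocytes ran from -0.419 to 0.206. Such values cannot show whether the numbers mark a shared origin, which is not stated. With the replicate number as a block, 8 of the 10 genes passed between the stages, 5 in SN and 8 in NSN oocytes. Wee2 in SN and Cdc25a in NSN oocytes lost their calls (log2 0.55 and 0.76, edgeR adjusted p = 0.0584 and 0.0730). The block gave 0.0406 for Ccnb1 and 0.0131 for Wee2 between the types at MII, and interactions of 0.0569 for Ccnb1 and 0.024 for Ccnb2.

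Over all genes, the count that passed between NSN-MII and SN-MII oocytes was 26 in the reported fit, 219 with DESeq2, 89 without a filter, 69 with all 13 libraries in 1 fit, 16 with library totals, 2 to 5 with limma and 2 with the block, and ranged from 2 to 233 without 1 library, the highest without NSN-MII oocyte 3. The interaction gave 2 genes, 44 with DESeq2 and 6 without a filter, and between 0 and 12 without 1 library. At GV, limma called 1 gene with the smaller pseudocount and 5 without a filter. Among genes called between the stages the share that was higher was 36.8% with library totals and 50.1% with upper-quartile factors. At MII the few reads of Cdk1 limit any statement on its level.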
